A study of Mus musculus with 12 samples.

Results

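The resting mouse heart was described from the 6 hearts of the Control group, which were chosen by their group label and are 6 of the 12 hearts in the study. All mice were C57BL/6J, an inbred laboratory strain. The study, which asked how cirrhosis of the liver affects the heart, took 6 mice as Control and 6 that received carbon tetrachloride (CCl4), and the CCl4 hearts enter no value given here. The labels give no treatment that the Control mice received, and no age, sex or part of the heart. Total RNA was isolated with TRIzol, a phenol reagent, and made into stranded messenger RNA libraries. Values are RPKM, in which read counts are scaled to exon length and sequencing depth. Levels are set side by side between genes with the exons of all annotated isoforms merged as the length. Each library is taken as 1 mouse, and the hearts are named by their replicate number.

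The labelled tissue matched its markers. Of 12 listed ventricular heart muscle markers, 12 had a mean of at least 1 RPKM and 11 of at least 5 RPKM. Of all 31722 symbols, 11446 and 4534 did. Defining markers of lung, liver and thymus were at or near 0: Sftpc (surfactant) averaged 0.00459 RPKM, Alb (albumin) 0.0289 RPKM and Rag1 (lymphocyte receptor assembly) 0.00112 RPKM. The relative depths were between 26352337 read steps in replicate 6 and 57822439 in replicate 3, where a step is the value of 1 read end and 2 steps make 1 fragment, and 22082 to 24400 of the 31722 symbols were above 0 per heart. Replicate 1 stood apart from the other hearts. Across the genes with a mean of at least 5 RPKM, log2(RPKM + 1) in replicate 1 correlated with the other hearts at r = 0.960 to 0.972, and the other hearts with each other at r = 0.976 to 0.991. Replicate 1 had the lowest value of the 6 in 29.4% of these genes and the highest in 23.8%. No technical label of the samples sets replicate 1 apart, and several results it touches are also given without it.

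The heart pumps by sliding thick filaments of myosin along thin filaments of actin inside sarcomeres, and each beat is set off when calcium leaves the sarcoplasmic reticulum and binds troponin. The energy comes mainly from mitochondria burning fatty acids, with creatine kinase carrying high-energy phosphate to the filaments. Ventricular and atrial heart muscle cells carry different versions of several filament proteins, and the atria secrete atrial natriuretic peptide, the product of Nppa.

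Mitochondrial RNA led the ranking by mean RPKM. The 37 genes of the mitochondrial genome held 38.9% ± 2.21 (SD, n = 6) of the RPKM sum, and 7 gene models in a nuclear copy of mitochondrial sequence on chromosome 1 (24611535 to 24616197, GRCm38) held a further 28.1% ± 1.17. Together they took 64.3% in replicate 4 to 72.4% in replicate 6, with a mean of 67.0% ± 2.88, and 9 to 11 symbols of any kind held 50% of the RPKM sum. These genes are short, so that their share of the read steps, which do not divide by length, was smaller, at 34.1% ± 3.05.

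Among the 13 proteins of the mitochondrial genome, 4 stood highest. The complex I subunits mt-Nd4l, mt-Nd1 and mt-Nd6 averaged 33709 ± 5596, 31741 ± 3131 and 27504 ± 4084 RPKM, and mt-Cytb, the cytochrome b of complex III, 32180 ± 3719 RPKM. mt-Co1, the catalytic subunit of complex IV, averaged 20483 ± 1622 RPKM. In contrast, mt-Co2 averaged 1.96 ± 0.281 RPKM, mt-Co3 6.63 ± 1.48 RPKM and mt-Atp6 4.71 ± 1.09 RPKM, although each is a core subunit of complex IV or of ATP synthase. At least 99.5% of the 75-base windows of these 3 transcripts also occur in another gene, and the chromosome 1 models Gm10925 and Gm28661 averaged 85385 ± 8299 and 60493 ± 8890 RPKM. Reads from these 3 genes and from the nuclear copy cannot be told apart in these values, so that the 3 low values cannot be taken as levels of those transcripts. The levels of mt-Nd4l and mt-Co1 are uncertain too, as 98.7% and 39.8% of their windows occur in another gene. No windows of mt-Nd1, mt-Nd6 and mt-Cytb do. None of mt-Atp8 do either, but mt-Atp8 was low too, with 5.22 ± 1.02 RPKM. The share of windows thus does not go with the level in mt-Atp8 or mt-Nd4l, and the cause of the low values was not tested.

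Among nuclear genes, here and below without the chromosome 1 copy, the filaments of the sarcomere led. The 20 highest were named without gene models, such as Gm13054 with 1307 RPKM, and without genes under 300 exonic bases. Myh6, the main myosin heavy chain of the adult mouse heart (chromosome 14, 54941921 to 54966927, minus strand), had the highest RPKM, with 13482 in the lowest heart, a median of 16510 and 17697 in the highest. Mb, the oxygen-binding protein myoglobin, followed with 5381, 7375 and 8581 RPKM. The cardiac troponins Tnnt2, Tnni3 and Tnnc1, which place the calcium switch on the thin filament, averaged 5637 ± 394, 3691 ± 408 and 3122 ± 494 RPKM. The merged exons of Tnnt2 have 7752 bases and its principal transcript 1200, against 6726 and 6113 for Myh6. The order of these genes therefore depends on the length used. Tropomyosin Tpm1 averaged 2656 ± 425 RPKM, and the ventricular myosin light chains Myl3 and Myl2 averaged 2441 ± 517 and 2098 ± 419 RPKM. Nppa (chromosome 4, 148000722 to 148002079, plus strand) came after Tnnt2 by its mean, but its values ran from 577 to 14184 RPKM with a median of 2991. It had the widest spread between hearts among the 20, and without replicate 1 its mean was 2264 RPKM, below those of Fabp3, Tpm1 and Myl3, at 3057, 2799 and 2632 RPKM without that heart.

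**Figure D1:**
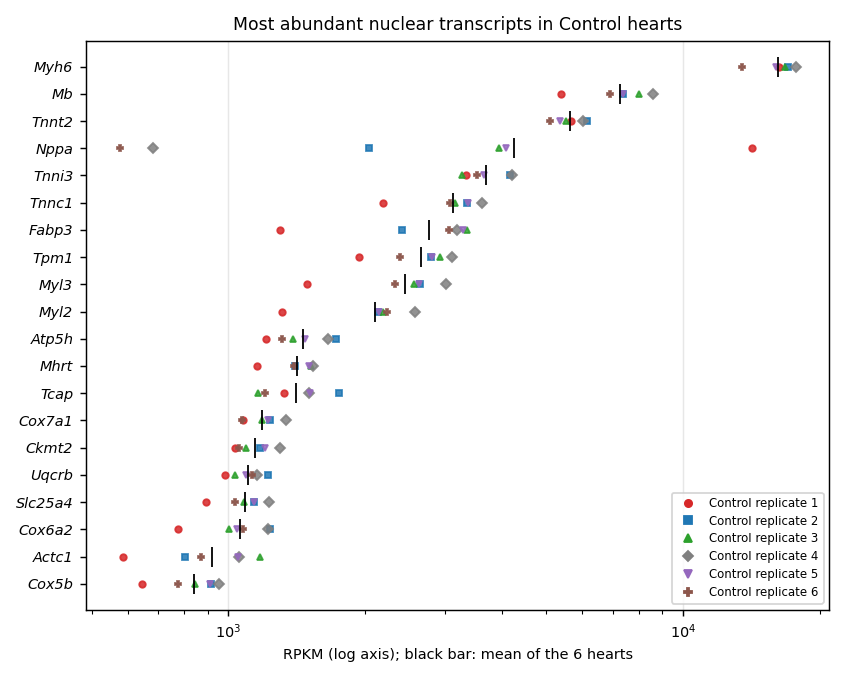
The 20 nuclear genes of highest mean RPKM, without gene models and genes under 300 exonic bases, with 1 point per Control heart and a black bar at the mean, on a log RPKM axis. Myh6 sits between 13482 and 17697 RPKM, whereas the 6 hearts of Nppa stretch from 577 to 14184 RPKM.

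Fuel and energy proteins filled most of the other high places. Fabp3, which carries fatty acids through the muscle cell, read 1298 RPKM in replicate 1 and had a median of 3122 and a highest value of 3350. The mitochondrial creatine kinase Ckmt2 averaged 1143 ± 101 RPKM and the ADP/ATP carrier Slc25a4 1085 ± 113 RPKM. Respiratory chain and ATP synthase subunits among the 20 were Atp5h with 1461 ± 199 RPKM, Cox7a1 with 1187 ± 102, Uqcrb with 1103 ± 84.2, Cox6a2 with 1059 ± 168 and Cox5b with 840 ± 115. The titin cap Tcap averaged 1409 ± 223 RPKM and cardiac actin Actc1 922 ± 213 RPKM. The long noncoding RNA Mhrt, with 1418 ± 141 RPKM, lies on the strand opposite Myh7 and shares 3666 exonic bases with it. Whether the counting used strand is not given in the sources used here, so that reads in the shared bases cannot be told apart.

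Nuclear RNA was spread over more genes than mitochondrial RNA. Between 120 and 141 nuclear genes held 50% of the nuclear RPKM sum in each heart, 3762 to 4136 held 90%, and the top 10 held 20.8% to 24.8%. In all, 11446 genes had a mean of at least 1 RPKM and 4534 of at least 5 RPKM.

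By cell type, the list of ventricular heart muscle markers held the most RNA of any marker list. The 12 markers summed to 31820 ± 2670 RPKM, 13.6% of the nuclear sum, of which Myh6 made up 16213 ± 1462 RPKM. Not all of the 12 set ventricular apart from atrial heart muscle. In replicate 1, where atrial markers were highest, Myh6 read 16237 RPKM against a median of 16510. Myl2 and Myl3 read 1312 and 1487 RPKM there, against medians of 2165 and 2592. The sum is one of heart muscle RNA, not of the ventricle alone. In a bulk sample, fewer cells of a type and less RNA per cell cannot be told apart, so that these sums are shares of RNA and not of cells, and lists of different markers are not compared in size beyond that. Among the 12 markers Ttn, the giant spring protein titin, averaged 16.8 ± 0.694 RPKM over its long exons and varied little, with an SD of 0.06 on the log2(RPKM + 1) scale. Atp2a2, the calcium pump of the sarcoplasmic reticulum, read 156 RPKM in the lowest heart, 184 at the median and 274 in the highest.

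Of the cell type lists, the atrial one differed most between hearts, by the ratio of the highest to the lowest sum. The 10 markers summed to 15305, 2390, 4430, 758, 4570 and 669 RPKM in replicates 1 to 6. Replicate 1 was above, and replicates 4 and 6 were below, all other hearts, and the sum runs mostly on Nppa. The 8 atrial markers with a mean of at least 5 RPKM all had this order, against 4.57% of all genes of that level, a description, since the order was noticed in these markers. Among them Tbx5 read 10.2 RPKM in replicate 1 and 2.47 to 5.53 in the others. Its mean reached 5 RPKM only through that heart. Without replicate 1 the mean sum was 2564 RPKM. Pacemaker and conduction markers were low, with Hcn4, the pacemaker channel, at 1.02 ± 0.247 RPKM and Tbx3, a factor of the conduction system, at 1.77 ± 0.404 RPKM.

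Vessel cell markers were read in every heart. The 11 endothelial markers summed to 406 ± 33.9 RPKM. They were led by Fabp4, a fatty acid carrier of capillary endothelium, with 199 ± 24.7 RPKM, the junction protein Cdh5 with 43.5 ± 4.05, and Pecam1 with 33.4 ± 3.19. Kdr, the main receptor for VEGF, read 17.4 RPKM in replicate 1, and its median was 31.4 and its highest value 39.4. Pericyte markers summed to 273 ± 40.7 RPKM, of which Rgs5, a regulator of G-protein signalling, made up 200 ± 33.9. Smooth muscle markers summed to 305 ± 66.7 RPKM, with the smooth muscle myosin Myh11 between 71.9 and 147 RPKM (median 89.0) and Acta2 between 44.3 and 86.7 RPKM (median 56.3). Myh11 was highest in replicate 1.

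Connective tissue markers were higher in replicate 1. The 11 fibroblast markers summed to 797 RPKM in replicate 1 and to 357 to 527 RPKM in the other hearts. Replicate 1 was highest in all 8 members with a mean of at least 5 RPKM, against 23.8% of all genes of that level. Gsn, an actin-severing protein also found in other cells, read 194 RPKM in the lowest heart, 228 at the median and 404 in replicate 1. Dpt (dermatopontin) read 68.9, 89.8 and 138 RPKM, and the proteoglycan Dcn 42.9, 61.4 and 123 RPKM, with replicate 1 highest in both. The 4 endocardial markers with a mean of at least 5 RPKM were all highest in replicate 1, beside the same 23.8% of all genes. Among them was Plvap with 20.1 RPKM against a median of 13.3. All 4 globin genes were also highest there, with Hbb-bs at 135 RPKM against a median of 79.3. The part of these marker levels in the other results was not tested.

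Immune cells gave low levels. Macrophage markers summed to 76.8 ± 10.6 RPKM in all: Lyz2 (lysozyme) averaged 37.6 ± 6.29 RPKM and C1qa (complement) 9.82 ± 1.62. Lymphocyte markers summed to 8.88 RPKM, with the T cell marker Cd3e at 0.0342 RPKM and Nkg7, a marker of cytotoxic cells, listed at 0 in every heart. Replicate 1 again differed, with the antibody genes Igkc at 10.7 RPKM and Ighm at 6.61 RPKM, against 1.40 to 2.08 and 1.82 to 2.96 RPKM in the other hearts. Fat cell markers were present at low levels and uneven, with Adipoq (adiponectin) between 0.610 and 8.11 RPKM and Cidea, which heart muscle also expresses, at 15.6 ± 3.06 RPKM. Hopx held nearly all of the lung list (33.0 of 33.3 RPKM), and heart muscle is known to express it. Cyp2e1, a member of the liver list, had a median of 2.88 RPKM and its highest value, 10.5, in replicate 1.

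**Figure D2:**
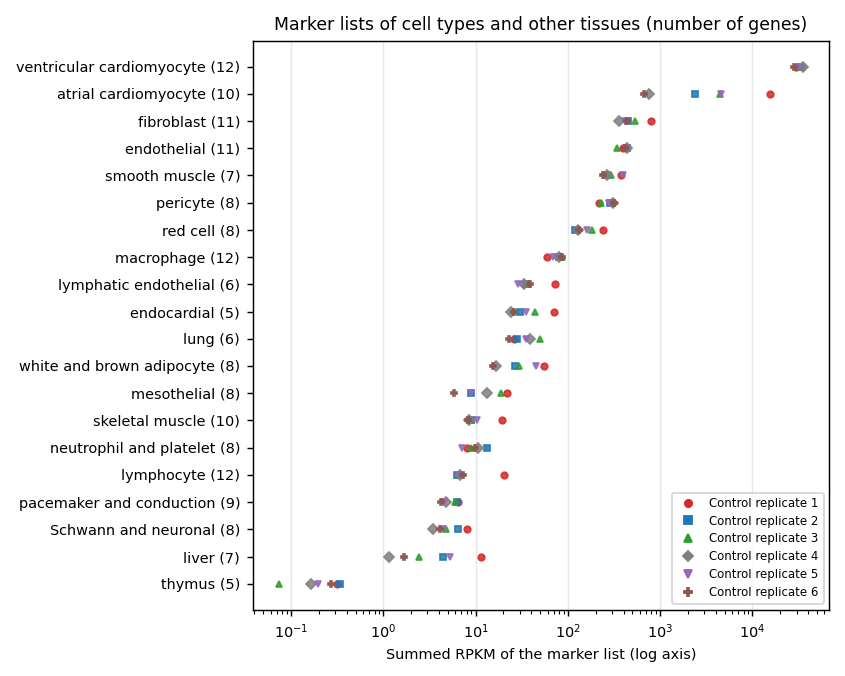
Summed RPKM of each cell type or tissue marker list on a log axis, with 1 point per Control heart. Ventricular markers (31820 ± 2670 RPKM) form a tight row, atrial markers run from 669 to 15305 RPKM, and the lists of liver and thymus lie at the low end.

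By pathway, contraction came first among nuclear genes. The 17 genes of the thick and thin filament lists held 16.3% ± 1.0 of the nuclear RPKM sum, between 14.7% in replicate 1 and 17.6% in replicate 4, and 19.9% ± 1.63 of the read steps of all genes. The SD of log2(RPKM + 1) between hearts ran from 0.10 to 0.47 among the 17. Beyond the filaments, the Z-disc protein Cryab, also a small heat shock protein, averaged 351 ± 36.4 RPKM, the intermediate filament Des 424 ± 29.3 and the actin cross-linker Actn2 314 ± 41.7. Ankrd1, a titin-bound protein that responds to stretch, read 302 RPKM in the lowest heart, 577 at the median and 926 in replicate 1.

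Calcium handling was led by proteins that bind or move calcium in the cell. Hrc, which binds calcium in the sarcoplasmic reticulum, averaged 747 ± 121 RPKM, the cytosolic calcium sensor calmodulin (Calm2) 269 ± 12.6 RPKM, and phospholamban Pln, which restrains the calcium pump, 236 ± 38.5 RPKM. The release channel Ryr2 averaged 22.9 RPKM. At the membrane, Fxyd1, a small regulator of ion transport, stayed between 31.2 and 34.3 RPKM. Of the intercalated disc, which joins heart muscle cells end to end, Ctnna1 averaged 106 ± 11.3 RPKM, Dsp 48.4 ± 11.2 and the gap junction protein Gja1 39.4 ± 3.77.

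The nuclear share of the respiratory chain and ATP synthase was lowest in replicate 1. The 79 genes held 8.38% ± 0.799 of the nuclear RPKM sum, with 6.83% in replicate 1 and 8.35% to 9.13% in the other hearts. Replicate 1 was the lowest heart in 63 of the 79, against the 29.4% of all genes. Complex I held 2.78% of the nuclear sum, led by Ndufa5 with 779 ± 85.9 RPKM and Ndufb9 with 629 ± 85.5. Complex IV held 2.33%, ATP synthase 1.77%, and complexes II and III together 1.5%, of which Uqcrh gave 672 ± 97.4 RPKM. Within these 79 genes the SD of log2(RPKM + 1) ran from 0.05 to 0.32.

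Genes of fatty acid use were also mostly lowest in replicate 1. The 24 genes of fatty acid uptake and oxidation summed to 2818 RPKM in replicate 1 and to 4763 to 5801 RPKM in the other hearts, and replicate 1 was lowest in 22 of the 24. Besides Fabp3, the electron carrier Etfb averaged 811 ± 141 RPKM, the thiolase Acaa2 234 ± 49.6, the dehydrogenase Acadl 228 ± 35.7 and the lipase Lpl 165 ± 32.0. Acaa2 read 140 RPKM in replicate 1 and had a median of 245 RPKM. The tricarboxylic acid cycle was lowest in replicate 1 in 16 of 21 genes, and Idh2 and Mdh2, among its leading members, averaged 276 ± 50.2 and 170 ± 18.5 RPKM. In glycolysis replicate 1 was lowest in 6 of 18 genes, near the 29.4% of all genes. Pgam2 averaged 638 ± 84.2 RPKM, Eno3 314 ± 38.6, Ldhb 313 ± 50.9 and Aldoa 216 ± 19.2. Of ketone body use, all 3 genes with a mean of at least 5 RPKM were lowest in replicate 1, and Oxct1, which activates ketone bodies, averaged 97.1 ± 14.9 RPKM.

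Among genes of protein synthesis and upkeep, the ribosomal list had the smallest median spread. The 36 ribosomal protein genes summed to 4752 ± 213 RPKM, their median SD was 0.107 on the log2(RPKM + 1) scale, and 15 of them had an SD of 0.1 or less, against a median of 0.152 and a share of 19.5% over all 4534 genes with a mean of at least 5 RPKM. Rps24 averaged 792 ± 40.2 and Rpl19 488 ± 35.7 RPKM. Translation factors summed to 1494 ± 78.3 RPKM, with a median SD of 0.153 and 4 of 12 that narrow, among them Eif3a at 173 ± 4.89 RPKM. Eef1a1, the general elongation factor, stood at 274 RPKM in replicate 1 and 144 to 181 in the other hearts. Of 20 proteasome genes, 6 were that narrow, and of 13 chaperones 3, with median SDs of 0.142 and 0.160. Among chaperones, Hspa8 averaged 586 ± 40.7, Hsp90ab1 543 ± 49.9 and the muscle heat shock protein Hspb7 530 ± 49.7 RPKM, while Hspa5, the chaperone of the endoplasmic reticulum, read 43.2 RPKM in replicate 1 and 86.9 to 126 RPKM in the others.

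The extracellular matrix summed to 752 RPKM in replicate 1 and 535 to 603 RPKM elsewhere, and its members did not all share that side. Dcn and the inhibitor Timp3, at 66.8 RPKM against a median of 33.6, were highest in replicate 1. The basement membrane collagen Col4a1 was lowest there, with 42.8 RPKM against 74.6 to 97.4 RPKM in the other hearts, and so was its partner Col4a2, with 27.5 RPKM against a median of 55.6. Of hormones and receptors, Nppb, the second natriuretic peptide, averaged 169 ± 45.6 RPKM and was lowest in replicate 1, with 104 RPKM, where Nppa was highest. The receptor genes Npr2, Npr1 and the processing enzyme Corin averaged 7.36 ± 1.02, 5.63 ± 0.679 and 6.47 ± 1.34 RPKM. Nppc, the third peptide of the family, was listed at 0 in every heart. The muscarinic receptor Chrm2 averaged 7.83 ± 2.55 RPKM. The beta-adrenergic receptor Adrb1 averaged 0.753 RPKM. Of the cardiac transcription factors, Hand2 led with 24.7 ± 4.17 RPKM, followed by Esrra with 12.0 ± 1.47 and Mef2d with 11.7 ± 1.43.

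Choices within gene families were compared in 55 of 57 listed pairs, in which at least 1 gene had a mean of 1 RPKM. In each heart the difference was log2(RPKM + 1) of the first gene minus that of the second, and an exact two-sided permutation test flipped the sign of each heart. With 6 hearts the smallest p the test can give is 0.03125, or 0.0344 after Benjamini-Hochberg adjustment over the 55 pairs. In 50 pairs the same gene was higher in all 6 hearts, so that they have this adjusted p from the exact test: the gene listed first, the known heart, striated muscle or ventricular form where there is one, in 46, and the second in 4. Among the 46, the mean of the first gene was over 10 times that of the second in 34 and over 100 times in 11. The test asks whether the mean difference over these 6 hearts is 0. It gives its smallest p whenever all 6 hearts have the same direction, whatever the size or spread of the difference. The share of unrelated gene pairs with 1 direction in every heart was not computed. Hearts correlated with each other at r = 0.960 to 0.991 across genes, so genes of unlike level can keep 1 direction whether related or not. The count of 50 is therefore a description. RPKM was divided by the exons of all annotated isoforms merged, which can differ between the genes of a pair. The sizes of the ratios, and the counts over 10 and 100 times, depend on this length.

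In the sarcomere the first gene was higher in every heart in 11 of 11 pairs. Myh6 stood above Myh7, the slow myosin that larger animals use in the ventricle, by 5.83 ± 0.17 on the log2(RPKM + 1) scale. The levels were 16213 ± 1462 against 283 ± 25.9 RPKM, a ratio of 48.1 to 69.8 in single hearts. Of the windows of Myh6, 15.5% occur in another gene, so part of the reads of this pair is uncertain, as are those that Myh7 shares with Mhrt. Troponin T was 5637 RPKM for the cardiac Tnnt2 and 39.8 for the slow skeletal Tnnt1. Troponin I was 3691 for cardiac Tnni3 and 0.234 for Tnni1, the form of the fetal heart and slow muscle. Cardiac actin Actc1 was 13.6 to 38.4 times the level of skeletal actin Acta1 (42.7 RPKM), and Tpm1 was 18.3 to 67.7 times that of Tpm2 (63.8 RPKM). Cardiac Mybpc3 (345 RPKM) stood over skeletal Mybpc2 (2.50 RPKM), and Actn2 (314 RPKM) over the non-muscle Actn1 (11.2 RPKM). The ventricular light chains were above the atrial ones in every heart by sizes that differed widely: Myl2 was 3.13 to 272 times Myl7, and Myl3 was 3.8 to 296 times Myl4, lowest in replicate 1.

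The 250 bases before the transcription start of Myh6 and Myh7 are shown because this pair is the textbook isoform choice of the heart and both genes lie side by side on chromosome 14. The sequences are from RefSeq (GRCm38.p6), 5′ to 3′ on the strand of the gene, at chr14:54966608-54966857 and chr14:54994627-54994876, both minus. Capitals mark matches to 5 motifs searched on both strands: CATTCC, known to be bound by TEAD factors, the letters AGATAA of GATA-binding proteins, the MEF2 motif, the letters AGGTGT of T-box factors, and the box TATAAA of core promoters. No matches overlap.
Myh6: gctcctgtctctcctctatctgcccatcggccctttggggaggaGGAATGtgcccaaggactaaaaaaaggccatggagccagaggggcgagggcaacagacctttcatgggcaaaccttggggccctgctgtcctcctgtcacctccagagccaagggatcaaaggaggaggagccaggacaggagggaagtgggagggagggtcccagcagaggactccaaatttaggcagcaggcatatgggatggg
Myh7: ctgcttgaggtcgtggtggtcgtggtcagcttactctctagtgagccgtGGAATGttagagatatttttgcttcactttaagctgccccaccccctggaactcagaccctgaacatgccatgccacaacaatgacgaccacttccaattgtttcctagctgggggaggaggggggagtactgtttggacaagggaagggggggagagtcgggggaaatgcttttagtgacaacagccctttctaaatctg
Each holds 1 match, CATTCC on the opposite strand, 206 to 201 bases before the start in Myh6 and 201 to 196 in Myh7. Of 32851 promoters of the same length, 12.6% hold CATTCC. A match is a description of letters and no shown binding site. RefSeq has 2 starts for Myh7, of which 1 is shown. The RefSeq start of Myh6 lies inside the span given above for this gene, 54941921 to 54966927. The whole window shown for Myh6 therefore lies within that annotated span.

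In calcium cycling the first gene was higher in every heart in 7 of 8 pairs. The cardiac pump Atp2a2 (194 RPKM) stood over the fast skeletal Atp2a1 (0.296) and over Atp2a3 (1.59). The release channel Ryr2 averaged 22.9 RPKM, and skeletal Ryr1 averaged 0.0162 RPKM and was listed at 0 in some hearts. The calcium store protein Casq2 was at 83.7 RPKM and Casq1 at 5.74. Phospholamban Pln was above Sln (sarcolipin, the atrial pump inhibitor) by 5.04 ± 1.90 on the log2(RPKM + 1) scale, a ratio between 4.74 and 351. The exception was Camk2d, the kinase form most studied in heart, at 2.12 RPKM, which lay below Camk2g, at 11.3 RPKM, by 1.98 on this scale. The merged exons of Camk2d have 22493 bases and its principal transcript 5524, against 6401 and 3703 for Camk2g. Principal lengths would make this difference smaller. At the membrane the first gene was higher in every heart in 3 of 5 pairs. Gja1 (39.4 RPKM) stood over Gja5 (0.982), the connexin of the atrium and conduction system. The pacemaker channels Hcn2 and Hcn4 differed by 0.20, with hearts on both sides (exact p = 0.219).

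In mitochondria the first gene was higher in every heart in 9 of 9 pairs, several of them muscle forms of complex IV subunits. Cox6a2 was 80.7 to 140 times its partner Cox6a1 (9.95 RPKM), Cox7a1 was 26.5 to 34.1 times Cox7a2 (40.2 RPKM), and Cox8b, with 305 RPKM, stood over Cox8a, with 15.7. The ADP/ATP carrier Slc25a4 was above Slc25a5 by 5.50 ± 0.09, and its ratio stayed within 43.5 to 51.5. The least apart were the fusion proteins Mfn2 and Mfn1, with 25.8 and 23.5 RPKM and a difference of 0.13 ± 0.07, which became -0.03 when each gene was divided by the length of its principal transcript.

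Fuel enzymes followed in 11 of 12 pairs. Fabp3 was 6.31 to 22.0 times Fabp4, lowest in replicate 1. The merged exons of Fabp4 have 4489 bases and its principal transcript 896, against 823 in both for Fabp3. The principal length would make these ratios smaller. The insulin-driven glucose carrier Slc2a4 (22.2 RPKM) stood over Slc2a1 (1.49), Pfkm (105) over Pfkl (8.17), Eno3 (314) over Eno1 (11.1), Pgam2 (638) over Pgam1 (4.98) and muscle creatine kinase Ckm (190) over Ckb (15.8). Eno1 and Pgam1 share 65.4% and 40.6% of their windows with other genes, so their own levels are uncertain. Lactate dehydrogenase favoured the heart form, Ldhb, at 7.22 to 8.79 times Ldha (39.4 RPKM). The fatty acid gate Cpt1b averaged 43.5 RPKM and Cpt1a 4.54, but 92.1% of the windows of Cpt1b occur in another annotated gene. Hexokinase Hk2 (13.9 RPKM) stood over Hk1 (7.74) by 0.77, and by -0.18 with the length of the principal transcript. The energy sensor AMPK was the exception, with its alpha subunit Prkaa1 at 3.26 RPKM above Prkaa2, the muscle form, at 1.32.

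Regulators were closer together, with the first gene higher in every heart in 5 of 8 pairs. Nppa was above Nppb by 3.86 ± 2.03, a ratio between 2.69 and 136. The coactivators Ppargc1a and Ppargc1b averaged 5.65 and 2.76 RPKM, and the orphan receptors Esrra and Esrrg 12.0 and 1.29 RPKM. Mef2d (11.7 RPKM) stood over Mef2a (5.47), and Pparg (3.20), the regulator of fat cells, over Ppara (0.800), the regulator of fatty acid oxidation. The merged exons of Mef2a have 14681 bases and its principal transcript 2664, against 5985 and 1767 for Mef2d. Principal lengths would make the difference of Mef2d and Mef2a smaller. Gata4 and Gata6 differed by 0.00, with hearts on both sides (exact p = 1), and by -0.67 with the length of the principal transcript, so that the difference depends on the length used. Tead1 (1.82 RPKM) stood over Tead4 (0.801), a direction that turned to -0.90 on the log2 scale with the length of the principal transcript. In translation neither pair had 1 direction in every heart. Eef1a2, the muscle and nerve form, and Eef1a1 differed by -0.18, with hearts on both sides (exact p = 0.406), and by -0.66 with the length of the principal transcript. Rpl3l, a ribosomal protein of striated muscle, was above Rpl3 in 5 of 6 hearts (0.58 ± 0.40, exact p = 0.0625, adjusted 0.0674), the exception being replicate 1, without which the difference was 0.73, while with the length of the principal transcript it was -0.39 over all 6 hearts. The general forms share 41.7% and 83.2% of their windows with other genes.

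**Figure D3:**
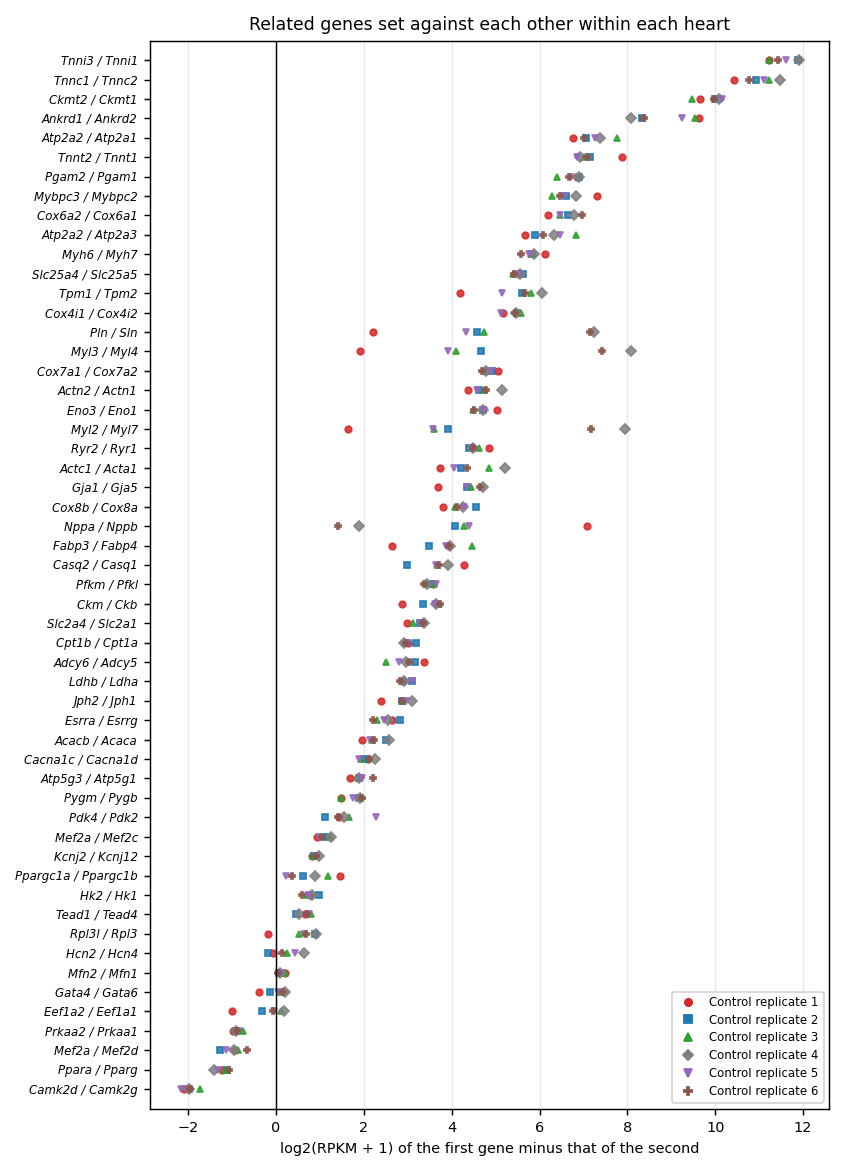
Differences in log2(RPKM + 1) between the first and second gene of family pairs, with 1 point per Control heart and a line at 0. In 46 pairs all 6 points lie to the right of 0, in 4 to the left and in the others on both sides, and pairs with an atrial gene such as Myl2/Myl7 have the longest rows of points.

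The spread between hearts was the SD of log2(RPKM + 1) over the 6 hearts in the 4534 genes with a mean of at least 5 RPKM. The median gene had an SD of 0.152, and counting alone would give a median of 0.0468. In 378 genes (8.34%) 1 heart stood apart, with a gap to the nearest heart above 0.625 of the range, the 95% value of Dixon's test, which chance passes in about 1 of 20, and replicate 1 was that heart in 169 on the high side and 70 on the low side. The SD was 0.5 or more in 104 genes (2.29%), called wide here, and 0.1 or less in 885 genes (19.5%), called narrow. Since these genes were chosen by the value described, the counts carry no test. Without replicate 1 the wide genes were 62, of which 52 were among the 104. The wide share went from 1.77% at 5 to 10 RPKM to 4.79% at 100 RPKM or more, while the narrow share went from 22.4% to 11.8%. Just inside the wide limit were the matrix genes Bgn and Col1a2 at 0.50, and just outside were Oaz1-ps and Fbln1, also at 0.50 when rounded.

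**Figure D4:**
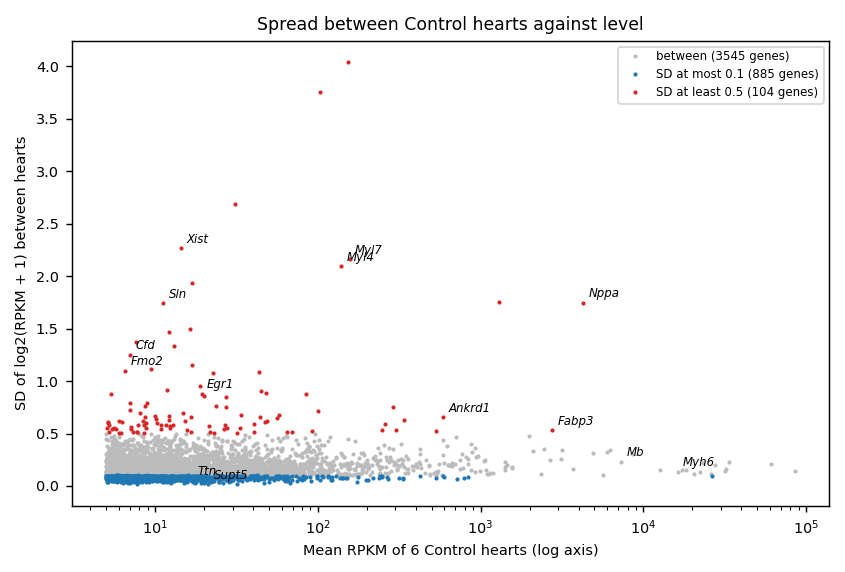
SD of log2(RPKM + 1) between the 6 Control hearts against mean RPKM on a log axis, with 1 point per gene, wide genes in red and narrow genes in blue. Among the labelled genes Myl7, Myl4, Nppa and Xist stand highest, with SDs of 1.75 to 2.26, and Supt5 lies at the bottom.

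Replicate 1 was the heart farthest from the median in 60 of the 104 wide genes (57.7%), against 36.1% of all genes. In 42 wide genes replicate 1 was highest and replicates 4 and 6 were the lowest, the order of the atrial markers, and the same held in 20 of the 25 genes of largest SD named below, beside 4.57% of all genes. Of the 104, 25 are gene models or symbols turned into dates and 11 have under 300 exonic bases. They stay in the counts, and the genes named below come from the other 68.

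The widest named genes with this order were atrial. Myl7, the atrial regulatory light chain (chromosome 11, 5896637 to 5898782, minus strand), read 419, 141, 181, 9.47, 179 and 14.6 RPKM in replicates 1 to 6, an SD of 2.16. Myl4, the atrial essential light chain (chromosome 11, 104550663 to 104595753, plus strand), read 391, 103, 149, 10.2, 172 and 12.6 RPKM, an SD of 2.10. Both have 1 heart at a high level, 3 in the middle and 2 low, and the ratio of Myl7 to Myl4 stayed within 0.929 to 1.37. Mybphl, a myosin-binding protein of the atria and conduction system (chromosome 3, 108364911 to 108380057, plus strand), read 56.3, 10.5, 16.2, 1.22, 16.3 and 0.714 RPKM. Nppa read 14184, 2041, 3941, 682, 4081 and 577 RPKM, and Sln 37.6, 7.87, 9.89, 0.740, 10.5 and 0.749 RPKM. Nppa did not keep a fixed ratio to Myl7: the ratio ran from 14.5 to 72.0. Reads of Nppa cannot be told from those of Gm13054, which lies opposite it over 989 shared exonic bases and read 0.287 to 0.320 of its level.

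The 250 bases before the start of Nppa, Myl7, Myl4 and Mybphl are shown because these genes moved together between hearts. They are from RefSeq (GRCm38.p6), on the strand of the gene, at chr4:148000472-148000721 (plus), chr11:5898783-5899032 (minus), chr11:104550413-104550662 (plus) and chr3:108364661-108364910 (plus). Capitals mark matches to the same 5 motifs.
Nppa: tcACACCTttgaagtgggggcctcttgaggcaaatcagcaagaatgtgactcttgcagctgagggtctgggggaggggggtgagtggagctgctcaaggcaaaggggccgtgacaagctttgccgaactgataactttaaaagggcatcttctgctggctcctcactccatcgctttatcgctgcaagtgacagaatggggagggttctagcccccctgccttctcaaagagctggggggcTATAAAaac
Myl7: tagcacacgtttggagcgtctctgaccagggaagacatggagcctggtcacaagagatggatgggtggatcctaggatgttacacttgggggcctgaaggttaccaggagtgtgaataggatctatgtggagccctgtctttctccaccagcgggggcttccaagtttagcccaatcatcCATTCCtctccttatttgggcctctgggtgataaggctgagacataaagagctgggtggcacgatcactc
Myl4: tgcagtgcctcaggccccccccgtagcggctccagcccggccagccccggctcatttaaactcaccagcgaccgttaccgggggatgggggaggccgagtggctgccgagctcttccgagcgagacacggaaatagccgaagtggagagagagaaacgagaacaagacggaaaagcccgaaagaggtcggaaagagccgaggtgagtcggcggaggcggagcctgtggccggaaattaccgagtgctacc
Mybphl: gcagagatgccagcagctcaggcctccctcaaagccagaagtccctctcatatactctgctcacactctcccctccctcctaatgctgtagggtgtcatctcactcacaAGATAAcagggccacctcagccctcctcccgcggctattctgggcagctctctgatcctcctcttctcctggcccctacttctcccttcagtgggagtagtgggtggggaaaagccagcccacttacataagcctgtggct
Nppa holds TATAAA 9 to 4 bases before the annotated start and AGGTGT, the T-box motif, on the opposite strand 248 to 243 bases before it. Myl7 holds CATTCC 70 to 65 bases before the start, and Mybphl holds AGATAA 141 to 136 bases before it. Myl4 holds none of the 5, which says only that these letters are not in this window. No motif is shared by all 4. Among all 32851 promoters, TATAAA is found in 12.4%, AGGTGT in 11.8%, AGATAA in 9.99% and the MEF2 motif in 3.20%.

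Other wide genes with the atrial order have known roles outside the atrium as well. Dkk3, a secreted protein on the atrial list, read 33.0, 9.83, 17.6, 1.90, 12.5 and 3.13 RPKM. Kcnj3, a subunit of the acetylcholine-gated potassium channel, ran from 16.7 to 103 RPKM (median 45.8), and Myl1, a light chain of fast skeletal muscle, from 10.2 to 61.2 (median 23.6). Pam, which amidates peptide hormones and is abundant in atrial granules, ran from 14.4 to 109 (median 37.1). Sbk3, a kinase, ran from 2.23 to 47.0 RPKM (median 14.0), Stard10, a lipid carrier, from 3.66 to 40.2 (median 16.6), Scd1, which makes monounsaturated fatty acids, from 2.23 to 21.5 (median 9.08), and the matrix-linked growth factor Ctgf from 11 to 50.4 (median 20.2). Gpx3, a secreted glutathione peroxidase, read 197, 77.2, 79.8, 35.6, 79.9 and 39.0 RPKM.

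In some wide genes replicate 1 stood far above the other 5 hearts. Angptl7, a secreted protein, read 50.9 RPKM there and 2.20 to 6.28 in the others, Fmo2, a monooxygenase, 23.8 against 2.21 to 3.75, and Ddit4, a stress gene that restrains mTOR, 15.9 against 2.41 to 4.75. Without replicate 1 these 3 had means under 5 RPKM, and the SDs of Fmo2 and Ddit4 were 0.28 and 0.33, while that of Angptl7 was 0.59. The matrix protein Podn read 67.2 RPKM against 7.82 to 20.8, and the lubricant Prg4 28.3 against 3.05 to 10.9. Mgp, a matrix inhibitor of calcification that was picked after its values were seen, read 702 RPKM against 168 to 265. Several of these are expressed by fibroblasts, whose markers were also highest in replicate 1, and the part of this in their spread was not tested.

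Fat cell genes were uneven as well. Cfd (adipsin), secreted by fat cells, read 16.5, 6.18, 5.34, 1.15, 11.7 and 1.23 RPKM, and Car3, an abundant enzyme of fat cells and slow muscle, 17.1, 6.72, 6.5, 1.31, 13.3 and 0.742 RPKM. In both, replicates 1 and 5 were highest and replicates 4 and 6 lowest, as in the atrial genes Myl4, Nppa, Sln and Mybphl. The order therefore does not set Cfd and Car3 apart from atrial genes. The ratio of Cfd to Adipoq stayed within 1.40 to 2.39, while that of Myl7 to Cfd ran from 8.21 to 33.8. Between atrial genes the range can be as wide, as the ratio of Nppa to Myl7 ran from 14.5 to 72.0.

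Many wide genes had other orders, as the atrial order held in 42 of the 104 and in 37 of the 68 open to naming. Xist, the RNA of the inactive X chromosome, had the largest SD of the named genes (2.26), with 24.5, 0.0760, 19.4, 22.7, 0.103 and 20.5 RPKM in replicates 1 to 6. The Y-linked Eif2s3y read 13.6 and 11.9 RPKM in replicates 2 and 5 and at most 0.0320 in the other 4, and Ddx3y 7.79 and 7.51 and at most 0.0202. By these 3 genes replicates 2 and 5 read as male hearts and the other 4 as female, while the labels give no sex. The hearts form 1 group throughout, and the part of sex in the spread of other genes was not tested. Egr1, an immediate early transcription factor, read 6.10, 8.94, 24.6, 32.8, 21.3 and 22.3 RPKM, low in replicates 1 and 2. Ucp3, a mitochondrial carrier induced by fatty acids, read 3.03, 11.8, 11.4, 11.3, 12.5 and 3.93 RPKM, low in replicates 1 and 6. Erdr1, a gene of the region shared by X and Y, read 28.0, 105, 16.5, 39.1, 53.0 and 26.7 RPKM.

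**Figure D5:**
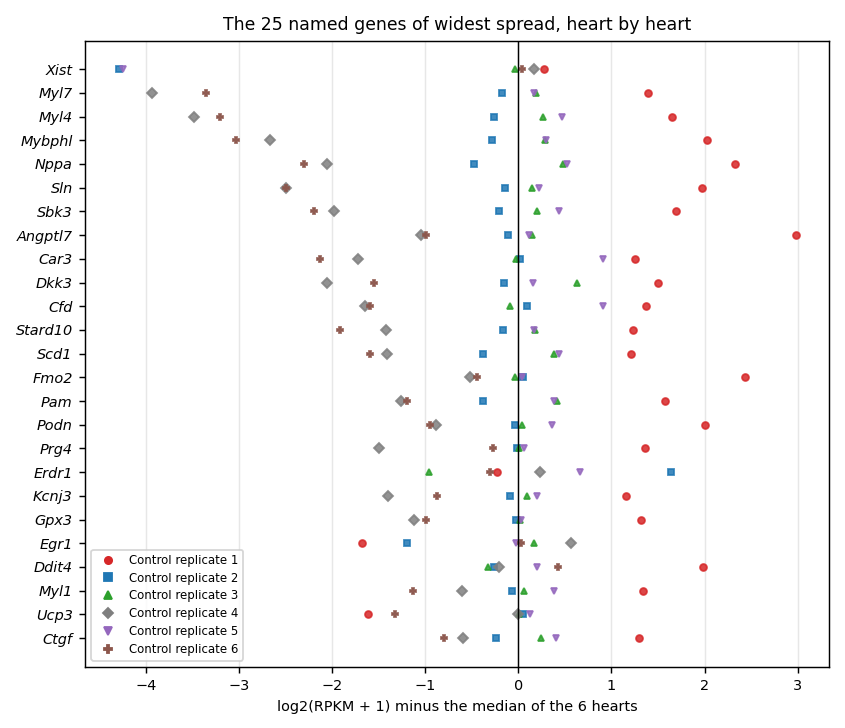
The 25 named genes of largest SD, as log2(RPKM + 1) minus the median of the 6 Control hearts, with 1 point per heart. Replicate 1 is the rightmost point and replicates 4 and 6 the leftmost in 20 of the 25, and Xist, Egr1, Ucp3, Erdr1 and Ddit4 have other orders.

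At the other end were genes of transcription and RNA handling. Supt5, a factor of transcription elongation, had the smallest SD, 0.0143, with 21.3 ± 0.221 RPKM. The 15 narrowest named genes had means of at most 67.8 RPKM and SDs of 0.0143 to 0.0332, and in 11 of them the SD was below that expected from counting alone, so that their order within the 15 is not resolved at this depth. By known role they include the chromatin proteins Supt16 (15 ± 0.355 RPKM) and Hmgb1 (67.8 ± 1.56), the splicing-linked Cd2bp2 (7.75 ± 0.105), U2surp (7.61 ± 0.197) and Nsrp1 (19.1 ± 0.459), and the transcription factor subunits Gtf2h1 (7 ± 0.181) and Snapc5 (46.9 ± 1.04). Rbm28, of the nucleolus, averaged 17.5 ± 0.387 RPKM, and the co-chaperone Sugt1 31.8 ± 0.530. Fra10ac1, Pcnp, Mtmr6 and Wdr26 were also among the 15. Just inside the narrow limit were Copz2 and Ubl7, and just outside were Gps2 and Kpnb1, all at 0.10 when rounded.

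Genes often used as references in quantitative PCR were unequal in spread. Of the 19 with a mean of at least 5 RPKM, 5 were narrow and 0 were wide, near the 19.5% and 2.29% of all genes. Ywhaz averaged 15.6 RPKM with an SD of 0.04 on the log2(RPKM + 1) scale, Ppia had an SD of 0.07 and B2m 0.08. Gapdh had an SD of 0.16, and 80.3% of its windows occur in another gene. Sdha had 0.31, Eef1a1 0.32 and Actb 0.36. Below 5 RPKM, Ipo8 (1.17 RPKM) had an SD of 0.03 and Tfrc (4.05 RPKM) of 0.50. Actb read 42.2 RPKM in replicate 1 and 66.0 to 86.3 RPKM in the other hearts, and without replicate 1 the SD was 0.14 for Actb and 0.14 for Eef1a1.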

How the data were processed

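Messenger RNA was sequenced from 12 mouse hearts, of which the 6 Control hearts were used. The authors deposited 1 table of RPKM values for 31722 gene symbols. Per the submitters' processing notes, Trimmomatic 0.36, Subread 1.5.1 and featureCounts were used with genome build GRCm38. The aligner settings, annotation release and strand setting are not given in the sources used here.

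Symbols were matched to GENCODE mouse release 21 (30270, 95.4%). RPKM times merged exon length gave whole steps in 92.6% to 93.4% of values of at most 30 steps (tolerance 0.05, where chance gives 10%), from which relative depth, read shares and counting error follow. No molecular identifiers are known, so counting error covers counting only.

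With Python 3.11.15, pandas 2.3.3 and numpy 2.4.6, means, SDs and shares were computed. Pairs within families were compared by an exact sign-flip permutation test over hearts, adjusted by the Benjamini-Hochberg method at 0.05. Spread was the SD of log2(RPKM + 1), with limits of 0.5 and 0.1, at a mean of at least 5 RPKM. A heart stood apart where its gap to the nearest heart exceeded 0.625 of the range (Dixon's 95% value for 6). The steps were tested on simulated data.

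Members, the 57 gene lists and the pairs were chosen with earlier results of these data known. Named were the 20 highest nuclear genes, mitochondrial proteins, the 25 widest and 15 narrowest genes (these and the 20 without gene models, date symbols, mitochondrial genes and genes under 300 exonic bases), per list the 4 highest and 2 widest members, genes of pairs, reference genes, sex markers and markers of other tissues. Other genes were named after their values were seen. Alternatives were other pseudocounts, filters, scalings, spread measures, gene lengths and each heart left out. The CCl4 hearts were left out because the description is of the resting heart. A few genes that these rules name, and 1 pair in the plot of pairs, are not reported here.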

Additional observations from a re-analysis of the deposited data

Results flagged for a closer look

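Among 197 values checked (named genes, summed lists, reference genes, pair differences and a mitochondrial share), 26 had 1 heart whose gap to the nearest other exceeded 0.625 of the range, 1 of them counted in 2 families. Chance gives about 1 in 20, but 10 of the 26 are among the 25 genes chosen for their large SD, and 8.34% of all genes with a mean of at least 5 RPKM had such a heart, so nothing is read from the share. Of the 25 different values, 23 concern replicate 1, which was highest in 18 and lowest in 5. The causes were not tested.

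Among genes, replicate 1 was highest in Nppa (14184 RPKM, others 577 to 4081), Mybphl (56.3, others 0.714 to 16.3), Sln (37.6, others 0.740 to 10.5), Angptl7 (50.9, others 2.20 to 6.28), Fmo2 (23.8, others 2.21 to 3.75), Pam (109, others 14.4 to 48.2), Podn (67.2, others 7.82 to 20.8), Prg4 (28.3, others 3.05 to 10.9), Gpx3 (197, others 35.6 to 79.9), Ddit4 (15.9, others 2.41 to 4.75) and Eef1a1 (274, others 144 to 181). It was lowest in Myl2 (1312 RPKM, others 2130 to 2579). Rps18, a ribosomal protein used as a reference, was lowest in replicate 6 (16.7 RPKM, others 20.8 to 22.7).

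Among summed lists, replicate 1 was highest in atrial markers (15305 RPKM, others 669 to 4570), lymphatic markers (72.9, others 28.5 to 38.3), lymphocyte markers (20.1, others 6.22 to 7.30), skeletal muscle markers (19.1, others 8.27 to 10.4), extracellular matrix (752, others 535 to 603) and natriuretic peptides with their receptors (14328, others 811 to 4302). It was lowest in fatty acid uptake and oxidation (2818 RPKM, others 4763 to 5801).

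Among pair differences on the log2(RPKM + 1) scale, replicate 1 was highest in Tnnt2/Tnnt1 (7.87, others 6.85 to 7.14), and lowest in Jph2/Jph1, the proteins that hold the calcium store at the membrane (2.39, others 2.87 to 3.11), Gja1/Gja5 (3.68, others 4.35 to 4.71) and Rpl3l/Rpl3 (-0.18, others 0.53 to 0.92). Replicate 2 was highest in Cpt1b/Cpt1a (3.18, others 2.93 to 3.02).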

How the results depend on the processing

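Depth limits the narrow end, where counting error exceeds the SD in 11 of the 15 narrowest genes, and RPKM over merged exons limits the pairs. No paired analysis was possible because 1 group of hearts was used, with no second group to share replicate numbers. Of the shares, mitochondrial RNA went from 67.0% of the RPKM sum to 34.1% of read steps (65.9% to 67.5% with each heart left out), and sarcomere proteins from 5.41% to 19.9% of read steps and 16.3% of the total without mitochondrial RNA (5.23% to 5.6% with each heart left out), as both totals are defined differently. Genes with an SD of at least 0.5, reported as 104, were 363 at a mean of at least 1 RPKM, 44 at 20 RPKM, 64 by the scaled median absolute deviation, and 62 to 131 with each heart left out. Genes with an SD of at most 0.1, reported as 885, were 366 under TPM scaling, 2848 at a mean of at least 1 RPKM, 218 at 20 RPKM, 1621 by the scaled median absolute deviation, 1788 without replicates 1, 4 and 6, and 821 to 1315 with each heart left out. Of the 25 named wide genes, 20 stayed wide by the median absolute deviation and 6 of 23 without replicates 1, 4 and 6; the latter 3 are the highest and lowest hearts of 20 of the 25, so that a smaller SD follows from leaving them out. All 25 stayed so under the 3 scalings. Without replicate 1, Fmo2, Ddit4 and Angptl7 fell under the mean of 5 RPKM, and the SDs of Fmo2 and Ddit4 were then 0.28 and 0.33; the other 22 stayed wide. All 15 named narrow genes stayed narrow under every alternative in which their mean was high enough to be counted. Pairs with 1 direction in every heart were 50 of 55, 45 of 48 with a mean of 5 RPKM, 41 of 44 with at least 90% unique windows, and 50 to 51 with each heart left out. With principal transcript lengths they were 52 of 56, the first gene being higher in 43 in place of 46. Mfn2/Mfn1 then went from 0.13 to -0.029, Hk2/Hk1 from 0.77 to -0.18, Tead1/Tead4 from 0.65 to -0.90, Rpl3l/Rpl3 from 0.58 to -0.39, Gata4/Gata6 from 0.00 to -0.67 and Eef1a2/Eef1a1 from -0.18 to -0.66. Principal lengths, unique windows and the fit without replicates 1, 4 and 6 were chosen after seeing the data.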

Other observations

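Of 19 clock genes, 5 had a mean of at least 5 RPKM and 17 of at least 1 RPKM, beside 4534 and 11446 of all 31722 symbols. Dbp, a clock output factor, averaged 18.5 ± 3.72 RPKM, and the clock repressors Nr1d1 and Nr1d2 averaged 15 ± 4 and 13.8 ± 1.96 RPKM. Replicate 1 differed from the others in members on both sides. Nr1d1 read 7.79 RPKM there and 14.6 to 20 in the others, and the period genes Per2 and Per1 read 8.73 and 7.98 RPKM against 1.66 to 2.43 and 2.35 to 4.33. Arntl, the activator of the clock, read 0.175 RPKM against 0.651 to 1.01. Per2 and Arntl were picked after their values were seen. Among glucocorticoid targets, Tsc22d3 read 20.9 RPKM in replicate 1 and 5.78 to 7.18 in the others, whereas Pdk4, which holds back glucose oxidation, ran from 40.6 to 87.7 RPKM with replicate 1 at 53.4. The labels give no time of day for the samples.

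Antigen presentation and interferon genes were read in every heart. The class I genes B2m, H2-K1 and H2-D1 averaged 137 ± 7.42, 137 ± 18.9 and 105 ± 9.90 RPKM, and the class II genes H2-Ab1 and Cd74 averaged 37.1 ± 5.92 and 32.0 ± 5.14 RPKM. Of the interferon list, 11 of 19 had a mean of at least 5 RPKM, beside 4534 of all 31722 symbols, led by Gbp3 with 51.5 ± 7.44 and Ifit3 with 35.1 ± 5.90. Of 10 cell division genes, 2 had a mean of at least 5 RPKM, Pcna with 7.55 ± 0.825 and Ccna2 with 5.77 ± 0.679. Mki67 ran from 2.33 RPKM in replicate 1 to 7.13, and Top2a from 0.907 to 2.37. Among immediate early genes besides Egr1, Klf4 and Jun averaged 17.8 ± 1.88 and 16.4 ± 2.42 RPKM. Of the muscle ubiquitin ligases, Trim54 averaged 181 ± 13.5 and Trim63 58.3 ± 8.68 RPKM.

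Gene models of ribosomal RNA, which were left out of the named genes and picked here after their values were seen, were highest in replicate 2. AY036118 read 1006 RPKM there and 364 to 494 in the others, and Gm42418 577 against 204 to 277.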
